A study of Homo sapiens with 18 samples.

Results

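The genes described here are 34 human genes that act in the germline, in meiosis and in the piRNA pathway, listed by name, with no methylation level in the rule but with earlier results of these data known. All 34 were found among the 20136 protein-coding genes of the annotation, and each was represented by the window of 1000 bp on either side of its gene 5′ end on GRCh37. DNA methylation was measured in 3 established cancer cell lines without treatment, namely the colorectal carcinoma line HCT15 and the prostate cancer lines DU145 and PC3. Each line contributed 1 library of reduced representation bisulfite sequencing (RRBS), which reads the methylated share of the reads at single CpGs, and 5 libraries of MBD-seq, in which DNA fragments are captured by a methyl-binding domain and sequenced. The MBD-seq kits were MethylMagnet, MethylCollector, MethylCollector Ultra, MethylCap and MethylMiner, each applied once per line to DNA of the same line, so that no group of samples held a replicate.

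Germline genes are a textbook case of genes that are switched off in somatic cells by methylation of CpG-rich promoters, most of which otherwise stay free of methylation. The proteins they encode silence transposons with piRNAs bound to PIWI proteins, pair homologous chromosomes through the synaptonemal complex, and cut and repair DNA in meiotic recombination. In tumours such genes can lose promoter methylation, and several are known as cancer/testis genes.

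The RRBS libraries held 2922644 (HCT15), 3036395 (DU145) and 3074978 (PC3) CpGs, with a median coverage of 23, 33 and 26 reads over the CpGs with 10 reads or more. The MBD-seq libraries held from 10040 (DU145 MethylMagnet) to 7344098 (HCT15 MethylMiner) fragments, and the 4 kits other than MethylMiner summed to 4864802 (HCT15), 893575 (DU145) and 1856088 (PC3) fragments. Over CpGs that RRBS read as methylated in a single line, 12 of the 15 MBD-seq libraries had the most fragments per CpG at the CpGs of the line on their label, and the 3 MethylMiner libraries did not. In PC3, chromosome 22 had 0 CpGs and chromosome X had 18, so genes there could not be measured in that line.

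The methylation level of a window is the mean over its CpGs with 10 reads or more, printed with its SD over CpGs, and was taken as measured from 5 such CpGs upward. A window was called methylated from 60% up, unmethylated up to 20% and partial between. The SD describes the spread between CpGs of 1 library and is no error of the cell line, since CpGs are not replicates.

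Stretches of 5 genes (GRCh37, gene strand, 5′ to 3′) show what was measured. Capitals mark the CpGs with 10 reads or more in all 3 lines. SYCP3, the synaptonemal complex protein that forms the chromosome axis, stands for windows methylated in every line, with chr12:102133271-102133470 on the minus strand, upstream of the gene and partly in an exon of a CHPT1 transcript. The 14 marked CpGs averaged 97.1%, 98.7% and 98.2% for HCT15, DU145 and PC3, and the lowest single CpG of the 3 lines was at 86.7%.
SYCP3: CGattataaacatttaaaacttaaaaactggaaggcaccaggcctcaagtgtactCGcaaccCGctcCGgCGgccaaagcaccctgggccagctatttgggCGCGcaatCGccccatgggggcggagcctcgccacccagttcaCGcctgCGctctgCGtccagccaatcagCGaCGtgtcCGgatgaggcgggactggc

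TDRD9, a tudor-domain helicase of the piRNA pathway, is shown for a methylated exon close to the 5′ end of another gene, with chr14:104394847-104395046 on the plus strand. Its 9 marked CpGs averaged 97.2%, 99.2% and 94.8% in HCT15, DU145 and PC3.
TDRD9: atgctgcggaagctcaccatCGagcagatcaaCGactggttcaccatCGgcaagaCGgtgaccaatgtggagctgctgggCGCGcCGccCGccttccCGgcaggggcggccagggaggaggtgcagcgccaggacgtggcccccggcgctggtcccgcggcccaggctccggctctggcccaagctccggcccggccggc

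TDRD5, another tudor-domain protein of the piRNA pathway, and BRDT, the testis member of the BET bromodomain family, are shown because both were low in DU145 alone. The TDRD5 stretch is chr1:179560833-179560932 on the plus strand in an intron, and its 9 marked CpGs averaged 80.9% in HCT15, 18.4% in DU145 and 93.3% in PC3. The BRDT stretch is chr1:92414633-92414832 on the plus strand upstream of the gene, and its 4 marked CpGs averaged 96.0%, 31.8% and 94.4%. Within both stretches the DU145 level differed between CpGs inside the sequence CCGG and the others. The former averaged 53.9% in TDRD5 and 58.4% in BRDT, and the latter 8.30% and 5.20%.
TDRD5: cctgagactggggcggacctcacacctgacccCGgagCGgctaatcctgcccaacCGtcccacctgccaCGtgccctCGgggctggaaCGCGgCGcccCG
BRDT: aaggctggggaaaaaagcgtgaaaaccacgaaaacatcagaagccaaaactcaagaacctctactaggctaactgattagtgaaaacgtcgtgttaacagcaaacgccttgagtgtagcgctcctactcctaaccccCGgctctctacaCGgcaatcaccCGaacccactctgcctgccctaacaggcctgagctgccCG

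TDRKH, a tudor-domain protein that holds PIWI proteins at mitochondria, stands for windows without methylation. In chr1:151762999-151763198 on the minus strand, in an intron, its 8 marked CpGs averaged 4.06% in HCT15, 6.92% in DU145 and 4.82% in PC3. The 7 of them outside CCGG were at 0% in every line, and the single one inside CCGG read 32.5%, 55.4% and 38.6%.
TDRKH: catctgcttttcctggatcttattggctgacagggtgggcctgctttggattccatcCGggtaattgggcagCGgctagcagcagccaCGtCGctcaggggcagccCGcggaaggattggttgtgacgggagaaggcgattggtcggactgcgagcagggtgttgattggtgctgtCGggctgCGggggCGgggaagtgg

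Most of the measured germline windows were methylated in each of the 3 lines. In HCT15, 21 of 26 measured windows were methylated (80.8%, against 23.6% of the windows of all protein-coding genes), 1 was partial and 4 were unmethylated (15.4%, against 56.7%). In DU145, 19 of 28 were methylated (67.9%, against 15.3%), 4 were partial and 5 were unmethylated (17.9%, against 58.9%). In PC3, 20 of 26 were methylated (76.9%, against 14.1%), 2 were partial and 4 were unmethylated (15.4%, against 61.4%). The median level was 92.1% in HCT15, 93.2% in DU145 and 84.5% in PC3, whereas the median over all genes was 16.8%, 16.9% and 16.1%.

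CpG-rich windows showed the same contrast. Over windows with an observed over expected CpG ratio of 0.6 or more, the germline genes were methylated in 12 of 17 windows in HCT15 (70.6%), 9 of 16 in DU145 (56.3%) and 11 of 17 in PC3 (64.7%). Among all protein-coding genes with this ratio, 15.3%, 6.39% and 5.84% of the windows were methylated. The median ratio was 0.616 in the germline genes and 0.612 over all genes, so the list as a whole was not poor in CpGs.

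All 3 lines were measured in 23 of the 34 genes, and 16 of these were methylated in every line (69.6%, against 8.78% of 12871 genes). They were the piRNA pathway genes PIWIL2, ASZ1, GTSF1, TDRD6, TDRD9, TDRD12, RNF17 and STK31, the chromosome axis and synapsis genes SYCP1, SYCP3, SYCE2 and HORMAD1, the genes SPO11 and CTCFL, and SLC25A31 and ADAD1. PIWIL4 and TDRKH were unmethylated in every line (49.5% of all genes were). BOLL and TEX15 were methylated in 1 line or more and unmethylated in another (5.31% of all genes). With STAG3, 5 genes were unmethylated in 1 line or more (21.7%, against 71.7%). TDRD5, STAG3 and TEX14 were partial in at least 1 line.

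**Figure D1:**
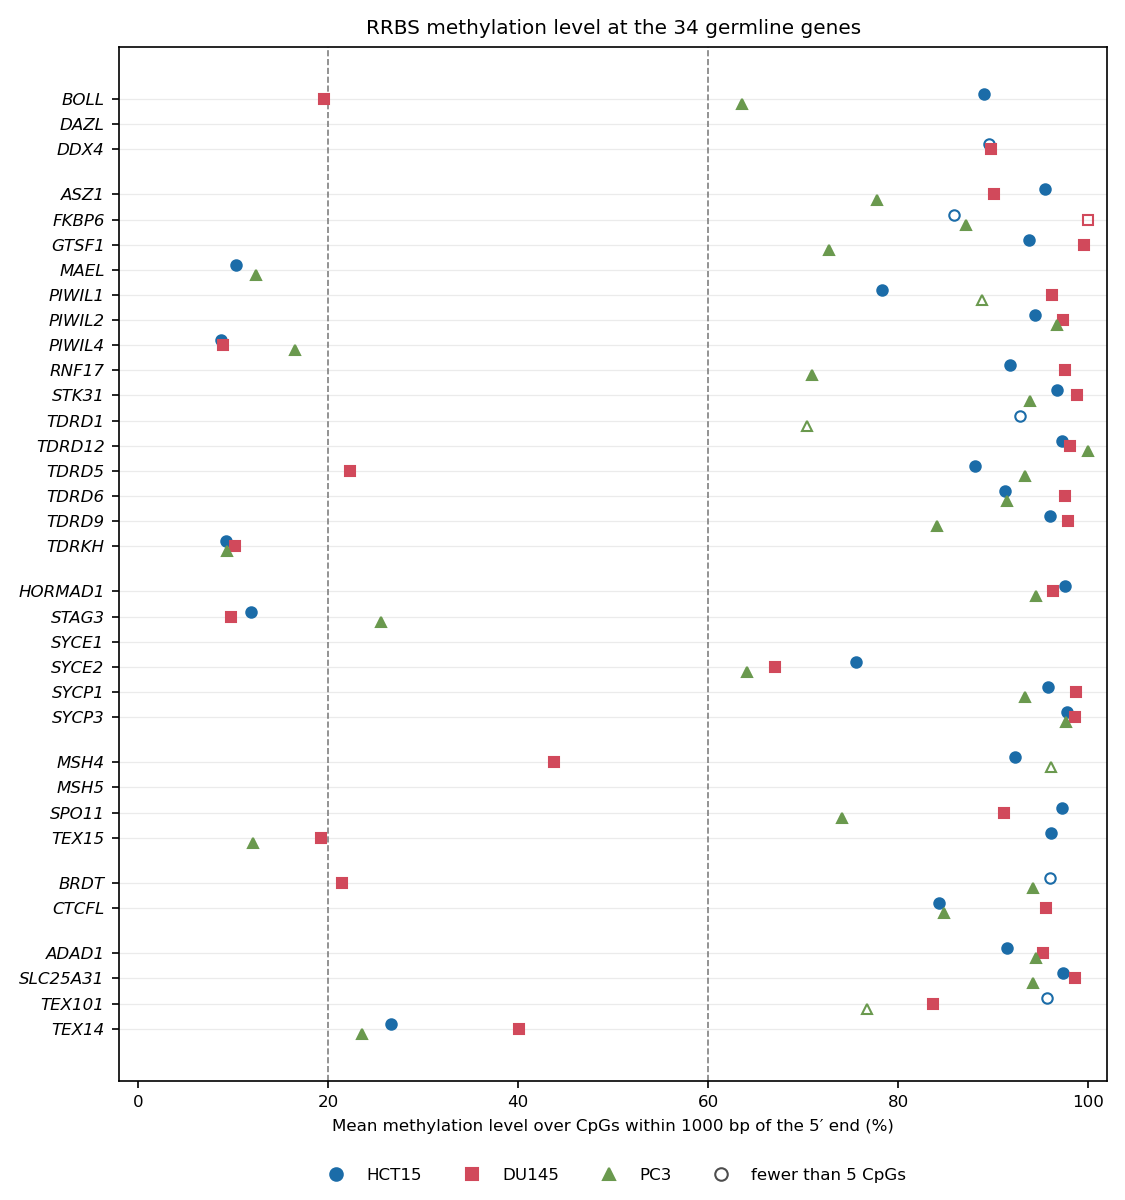
Mean methylation level (x axis, percent) of the window around the 5′ end of each germline gene (y axis), with HCT15 as circles, DU145 as squares and PC3 as triangles; open symbols stand for windows with fewer than 5 CpGs, and the dashed lines are the limits of 20% and 60%. The genes are grouped from top to bottom as RNA binding, piRNA pathway, chromosome axis, recombination, chromatin and other genes. Most symbols sit above 60%, and TDRD5, MSH4 and BRDT have DU145 apart from the other lines.

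Among the genes for germ cell RNA-binding proteins, BOLL was the only one measured in all 3 lines. BOLL, a relative of DAZL, had a level of 89.0% ± 15.5 (SD, 10 CpGs) in HCT15, 19.6% ± 23.2 (17 CpGs) in DU145 and 63.6% ± 18.7 (17 CpGs) in PC3. DDX4, the germ cell RNA helicase also known as VASA, had 89.8% ± 19.8 over 6 CpGs in DU145, 89.5% over 3 CpGs in HCT15 and 0 CpGs in PC3. DAZL, an RNA-binding protein needed for germ cell entry into meiosis, had 0 CpGs in this window in each line. Its gene 5′ end lies 64883 bp from the 5′ end of its canonical transcript, and around the latter the level was 96.8% ± 4.37 (7 CpGs) in HCT15, 95.8% ± 5.20 (7 CpGs) in DU145 and 93.7% ± 17.5 (34 CpGs) in PC3. DAZL was thus highly methylated at the start of its canonical transcript in all 3 lines.

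The piRNA pathway had 15 genes, of which 10 of 13 measured windows were methylated in HCT15, 9 of 12 in DU145 and 10 of 13 in PC3. TDRD12 had 97.2% ± 3.25 (39 CpGs), 98.1% ± 3.05 (42 CpGs) and 100% (13 CpGs) in HCT15, DU145 and PC3. PIWIL2, which encodes a PIWI protein that loads piRNAs, had 94.4%, 97.4% and 96.8%, and STK31, a tudor-domain kinase-like protein, had 96.7%, 98.8% and 93.9%. The SD over CpGs reached 19.6 in PIWIL2 (HCT15, where 1 CpG was at 0%) and 11.3 in STK31 (PC3).

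In PC3, several piRNA genes were above the limit of 60% but lower than in the other lines. RNF17, a tudor-domain protein of germ cell granules, had 91.8% in HCT15, 97.6% in DU145 and 71.0% in PC3. GTSF1, a PIWI cofactor, had 93.8%, 99.5% and 72.7%, and ASZ1, a scaffold protein of the piRNA machinery, had 95.5%, 90.1% and 77.8%. Their SD over CpGs in PC3 was 31.0 in RNF17, 30.2 in GTSF1 and 27.0 in ASZ1, so single CpGs of these windows ranged widely. The lines differed in the CpGs measured, with 11, 14 and 18 in GTSF1 and 13, 16 and 16 in ASZ1. Over the 13 ASZ1 CpGs downstream of the 5′ end, the levels were 95.5%, 96.3% and 87.1%. By the test per CpG described below, 8 of 26 shared CpGs of RNF17, 1 of 11 of GTSF1 and 0 of 13 of ASZ1 were lower in PC3 than in HCT15. Against DU145 these were 9 of 24, 4 of 14 and 2 of 16. TDRD1, which binds PIWI proteins through its tudor domains, had 92.9% over 4 CpGs in HCT15, 70.5% over 4 in PC3 and 0 CpGs in DU145, and was not measured by the rule of 5 CpGs.

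Among the 6 genes for the synaptonemal complex and the meiotic chromosome axis, 4 of 5 measured windows were methylated in each line. SYCP3 had 97.8% ± 3.60 (38 CpGs) in HCT15, 98.7% ± 1.81 (37 CpGs) in DU145 and 97.7% ± 2.58 (38 CpGs) in PC3, which was the highest minimum over the lines among the genes. HORMAD1, an axis protein that marks unpaired chromosomes, had 97.6%, 96.3% and 94.5%, and SYCP1, the protein that bridges paired chromosomes, had 95.8%, 98.8% and 93.3%. SYCE2, a protein of the central element, was the lowest of the windows methylated in all lines, with 75.5% ± 25.2, 67.0% ± 31.3 and 64.1% ± 37.2. SYCE1, another central element protein, had 0 CpGs around its gene 5′ end, and around its canonical start, 4252 bp away, it had 97.1%, 98.9% and 83.5%.

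SPO11, the enzyme that makes the DNA breaks of meiotic recombination, had 97.3% in HCT15, 91.2% in DU145 and 74.1% in PC3. CTCFL, the germline relative of the insulator protein CTCF, had 84.3%, 95.5% and 84.8%. SLC25A31, a testis ADP/ATP carrier of mitochondria, had 97.4%, 98.7% and 94.2%, and ADAD1, a testis RNA-binding protein, had 91.5%, 95.3% and 94.5%. MSH5, the partner of MSH4 in meiotic crossing over, had 0 CpGs in any line. TEX101, a surface protein of male germ cells, had 83.6% over 5 CpGs in DU145 and 3 CpGs each in HCT15 and PC3. At the canonical start of TEX101, 13394 bp away, the levels were 88.0%, 93.5% and 81.6%.

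Comparing the lines over the CpGs shared by both libraries, few germline windows changed by 25 points or more. HCT15 was higher than DU145 in 4 of 25 windows (16.0%, against 12.3% of all genes) and lower in 0 (against 1.56%). HCT15 was higher than PC3 in 1 of 24 windows (4.17%, against 12.5%) and lower in 0 (against 1.61%). DU145 was higher than PC3 in 1 of 24 windows (4.17%, against 4.40%) and lower in 3 (12.5%, against 3.25%). With 1 library per line no test over samples was possible. The counts are small, so that 1 gene moves a share by about 4.17 percentage points.

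TEX15, a protein needed to repair meiotic DNA breaks, had the largest difference, with 96.1% ± 4.71 (38 CpGs) in HCT15, 19.3% ± 35.2 (40 CpGs) in DU145 and 12.1% ± 25.6 (36 CpGs) in PC3. The difference from HCT15 was 76.3 points over 38 shared CpGs in DU145 and 83.1 points over 34 in PC3. The low level belonged to the side downstream of the 5′ end. There DU145 had 7.94% over 35 CpGs and PC3 9.61% over 35, against 95.9% over 33 in HCT15. Upstream, DU145 had 98.5% over 5 CpGs and HCT15 97.8% over 5. All of these CpGs lay more than 500 bp from the 5′ end, and within 500 bp TEX15 had 0 CpGs with 10 reads in any line, so the levels describe the outer parts of the window and not the sequence next to the start.

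BOLL was higher in HCT15 than in DU145 by 62.3 points over 10 shared CpGs, and the 17 CpGs of DU145 were all shared with PC3. PC3 was between the other lines, with CpGs from 26.9% to 97.5%. Around the canonical start of BOLL, 1443 bp from the gene 5′ end, the levels were 86.4% ± 21.1 (14 CpGs) in HCT15, 42.6% ± 41.7 (26 CpGs) in DU145 and 75.6% ± 22.7 (34 CpGs) in PC3. The order of the lines for BOLL was the same at both starts, but the windows overlap. The CpGs from 500 to 750 bp downstream of the gene 5′ end (5, 12 and 12 in HCT15, DU145 and PC3) lie in both. The canonical window is thus no separate check of this order.

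TDRD5 had 88.1% ± 12.7 (26 CpGs) in HCT15, 22.3% ± 21.0 (15 CpGs) in DU145 and 93.3% ± 3.72 (9 CpGs) in PC3. Over shared CpGs, HCT15 minus DU145 was 58.4 points and DU145 minus PC3 was -74.9 points. BRDT had 94.2% ± 5.30 (5 CpGs) in PC3 and 21.5% ± 28.2 (12 CpGs) in DU145, with 96.0% over 4 CpGs in HCT15. MSH4, the other protein of the crossover complex, had 92.4% ± 5.95 (13 CpGs) in HCT15 and 43.7% ± 29.8 (13 CpGs) in DU145, where its median coverage was 10 reads, with 96.2% over 2 CpGs in PC3. BOLL and TDRD5 were thus lowest in DU145, and TEX15 was low in both prostate lines. BRDT and MSH4 read lowest in DU145 too, but BRDT was not measured in HCT15 by the rule of 5 CpGs, nor MSH4 in PC3. Both MSH4 CpGs of PC3 lay inside CCGG. RNF17 was the 1 window that was higher in DU145 than in PC3, by 26.6 points over 24 CpGs.

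Fisher's exact test per CpG, adjusted by Benjamini-Hochberg over all shared CpGs of the genome, compared the reads of 2 libraries and not the conditions. A CpG was called at an adjusted p up to 0.05 and a difference of 25 points or more. Of 661 CpGs in germline windows, 73 were higher in HCT15 than in DU145 (11.0%, against 12.2% of the CpGs of all windows) and 12 were lower (1.82%, against 2.23%). Of 646 CpGs, 67 were higher in HCT15 than in PC3 (10.4%, against 12.3%) and 15 were lower (2.32%, against 2.25%). Of 640 CpGs, 37 were higher in DU145 than in PC3 (5.78%, against 5.47%) and 39 were lower (6.09%, against 4.27%).

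These calls were gathered in few genes. TEX15 held 32 of the 73 CpGs higher in HCT15 than in DU145, TDRD5 12, MSH4 10, BOLL 8, SYCE2 5 and BRDT 3. TEX15 held 32 of the 67 that were higher in HCT15 than in PC3, SYCE2 10, RNF17 8 and TDRD9 8. Of the 39 CpGs higher in PC3 than in DU145, 12 lay in BOLL, 11 in PIWIL4, 8 in TDRD5 and 4 in BRDT. SYCP3 had 0 calls over 36 to 38 CpGs in any pair of lines.

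**Figure D2:**
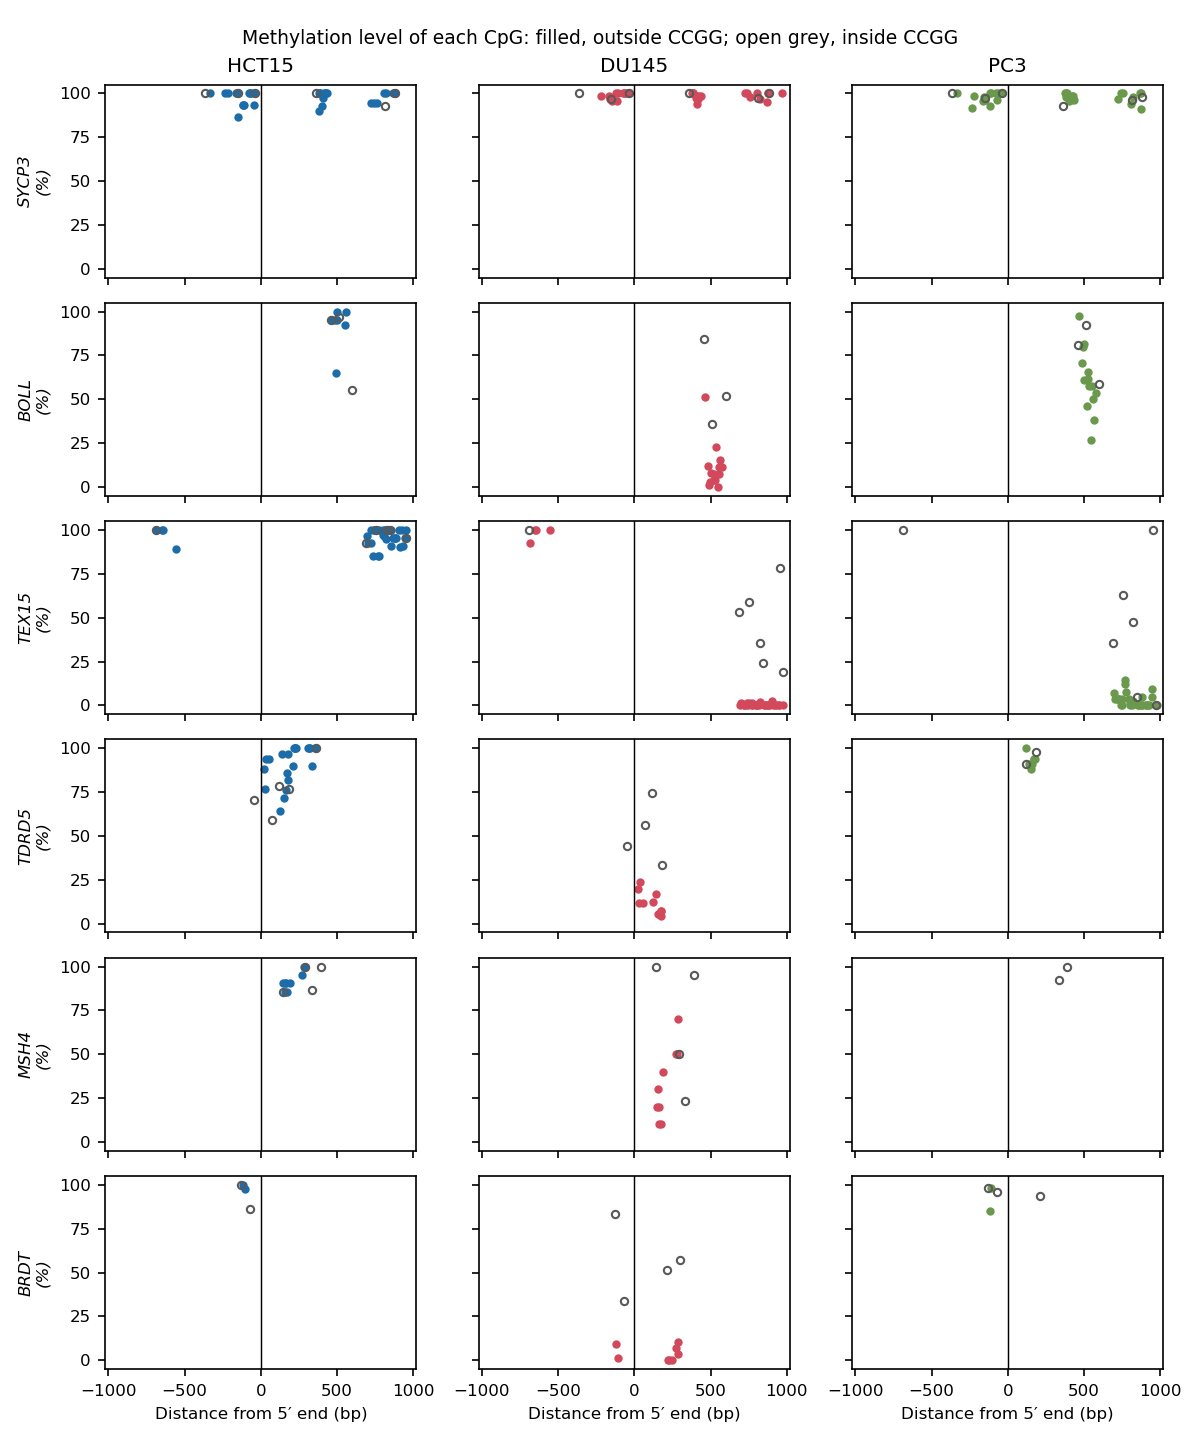
Methylation level of each CpG with 10 reads or more (y axis, percent) against its distance from the gene 5′ end in bp (x axis, gene strand), for 6 genes in rows and the 3 lines in columns. Filled points are CpGs outside CCGG and open grey points CpGs inside CCGG. SYCP3 is high throughout, and the TEX15 CpGs downstream of the 5′ end are near 0% in DU145 and PC3. BOLL, TDRD5, MSH4 and BRDT are lowest in DU145, although MSH4 has only 2 CpGs in PC3, both inside CCGG.

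CpGs inside CCGG, the sequence cut by the enzyme commonly used for RRBS, read differently from the others where methylation was low. Over all windows whose other CpGs averaged 5% or less, CpGs inside CCGG averaged 51.6% in HCT15, 52.4% in DU145 and 52.2% in PC3, against 2.20%, 2.26% and 2.39% for the others. Over windows whose other CpGs averaged 95% or more, those inside CCGG averaged 95.2% to 95.9%. The cause was not tested. The levels of low windows given above are therefore raised by these CpGs, which numbered 133 in the germline windows of HCT15, 141 in DU145 and 132 in PC3, beside 607, 617 and 595 others.

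Without the CpGs inside CCGG, a choice made after seeing the data, the low germline windows were lower still. BRDT in DU145 was at 3.98% over 8 CpGs, TDRD5 at 11.5% over 11, BOLL at 11.5% over 14 and TEX15 at 12.2% over 33, so that BRDT and TDRD5 were unmethylated there. TEX15 in PC3 was at 2.94% over 29 CpGs. MSH4 in DU145 stayed partial at 33.3% over 9 CpGs. The count of windows methylated in all 3 lines was again 16 of 23 (69.6%, against 6.52% of all genes). Those unmethylated in all were 3 (13.0%, against 63.9%), and those with both states were 3 (13.0%, against 8.25%).

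**Figure D3:**
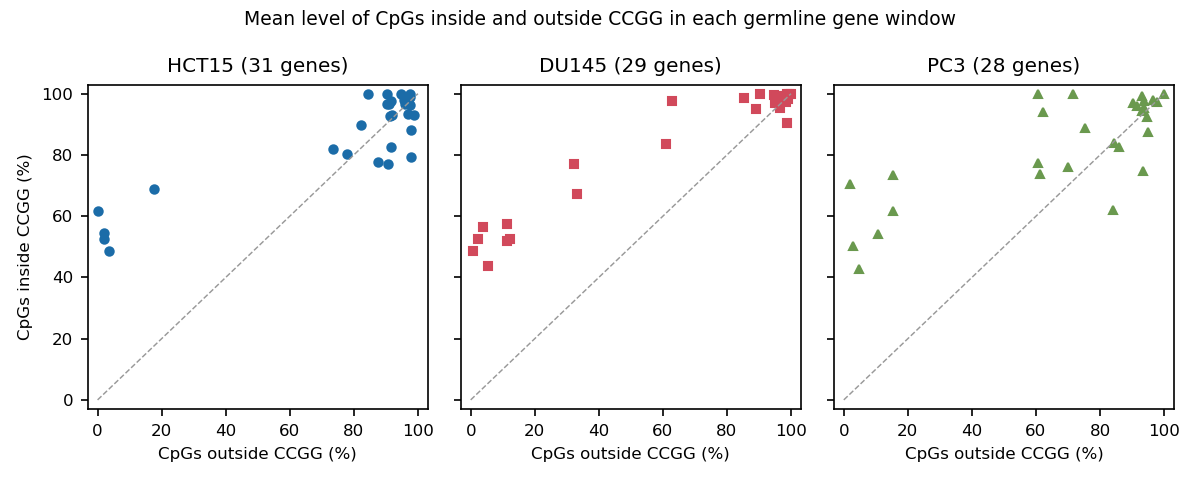
Mean level of the CpGs inside CCGG (y axis, percent) against that of the CpGs outside CCGG (x axis, percent) of the same window, 1 point per germline gene with both kinds of CpG, in 31 genes for HCT15, 29 for DU145 and 28 for PC3; the dashed line marks equal levels. Points with low values on the x axis sit well above the line, while highly methylated windows lie close to it.

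Of the 6 germline windows that were unmethylated in 1 line or more, those of PIWIL4, MAEL and STAG3 held the 5′ end of another gene and those of TDRKH, BOLL and TEX15 did not. PIWIL4, which encodes a nuclear PIWI protein in mice and a germline PIWI protein in humans, had 8.76% ± 19.8 (104 CpGs) in HCT15, 8.90% ± 19.5 (105 CpGs) in DU145 and 16.5% ± 26.8 (105 CpGs) in PC3. The 5′ end of FUT4, a fucosyltransferase, lies 81 bp downstream of that of PIWIL4. The canonical start of PIWIL4, 23528 bp away, had 98.2% over 6 CpGs in HCT15 and 0 CpGs in the other lines. In PC3, the rise was at the far end of the window, where the 21 CpGs from 750 to 1000 bp downstream averaged 46.8%, against 8.08% in HCT15 and 8.59% in DU145. All 11 CpGs of PIWIL4 called between lines were higher in PC3.

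MAEL, a protein needed for piRNA silencing of transposons, had 10.3% ± 27.3 (12 CpGs) in HCT15 and 12.4% ± 28.7 (13 CpGs) in PC3 at its gene 5′ end, with that of ILDR2 at -42 bp. At its canonical start, 13698 bp away, MAEL had 98.1% ± 3.06 (6 CpGs) in HCT15, 97.9% ± 2.36 (6 CpGs) in DU145 and 92.3% ± 8.66 (23 CpGs) in PC3. The annotated start chosen thus decided whether MAEL and PIWIL4 were read as unmethylated or methylated. TDRKH, with no other gene's 5′ end in its window, had 9.29% ± 19.3, 10.2% ± 20.4 and 9.39% ± 17.9 over 32 CpGs in HCT15, DU145 and PC3.

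STAG3, the cohesin subunit of meiotic chromosomes, shared its window with GPC2, a glypican, whose 5′ end is at -182 bp. STAG3 had 11.8% (37 CpGs) in HCT15, 9.80% (37 CpGs) in DU145 and 25.5% (45 CpGs) in PC3. In PC3 the CpGs upstream of the STAG3 5′ end averaged 10.9%, as low as the 10.9% of HCT15 and the 8.50% of DU145. The 7 CpGs more than 250 bp downstream, measured in PC3 alone, averaged 98.6% and 100% in their bins of 250 bp. Over the 37 CpGs shared with HCT15 the difference was 0.54 points, and the higher level of STAG3 in PC3 lay at CpGs with fewer than 10 reads in the other lines.

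TEX14, a protein of the bridges between germ cells, had partial levels of 26.6%, 40.1% and 23.6% in HCT15, DU145 and PC3. Its window holds the 5′ ends of IGBP1C, at 10 bp, and of RAD51C, a DNA repair gene, at -518 bp. On the upstream side the level was 9.06%, 10.0% and 9.18%, and on the downstream side 91.1%, 95.3% and 93.3%. All 12 CpGs on the downstream side lay in 20-base stretches that occur 10 times or more in the genome, with a median of 2490 copies, whereas those of the upstream side had none. The methylated part of the TEX14 window was therefore all repeated sequence.

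TDRD9 differed from these genes, since the 5′ end of ATP5MJ, a subunit of ATP synthase, lies at -187 bp and the window was methylated on both sides. Upstream HCT15 had 95.6% and DU145 97.5%, and downstream the 3 lines had 96.7%, 98.9% and 93.4%. Upstream in PC3, TDRD9 had 85.2% within 250 bp, 78.4% from 250 to 500 bp and 67.5% from 500 to 750 bp, and 8 of 40 CpGs were higher in HCT15 than in PC3.

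**Figure D4:**
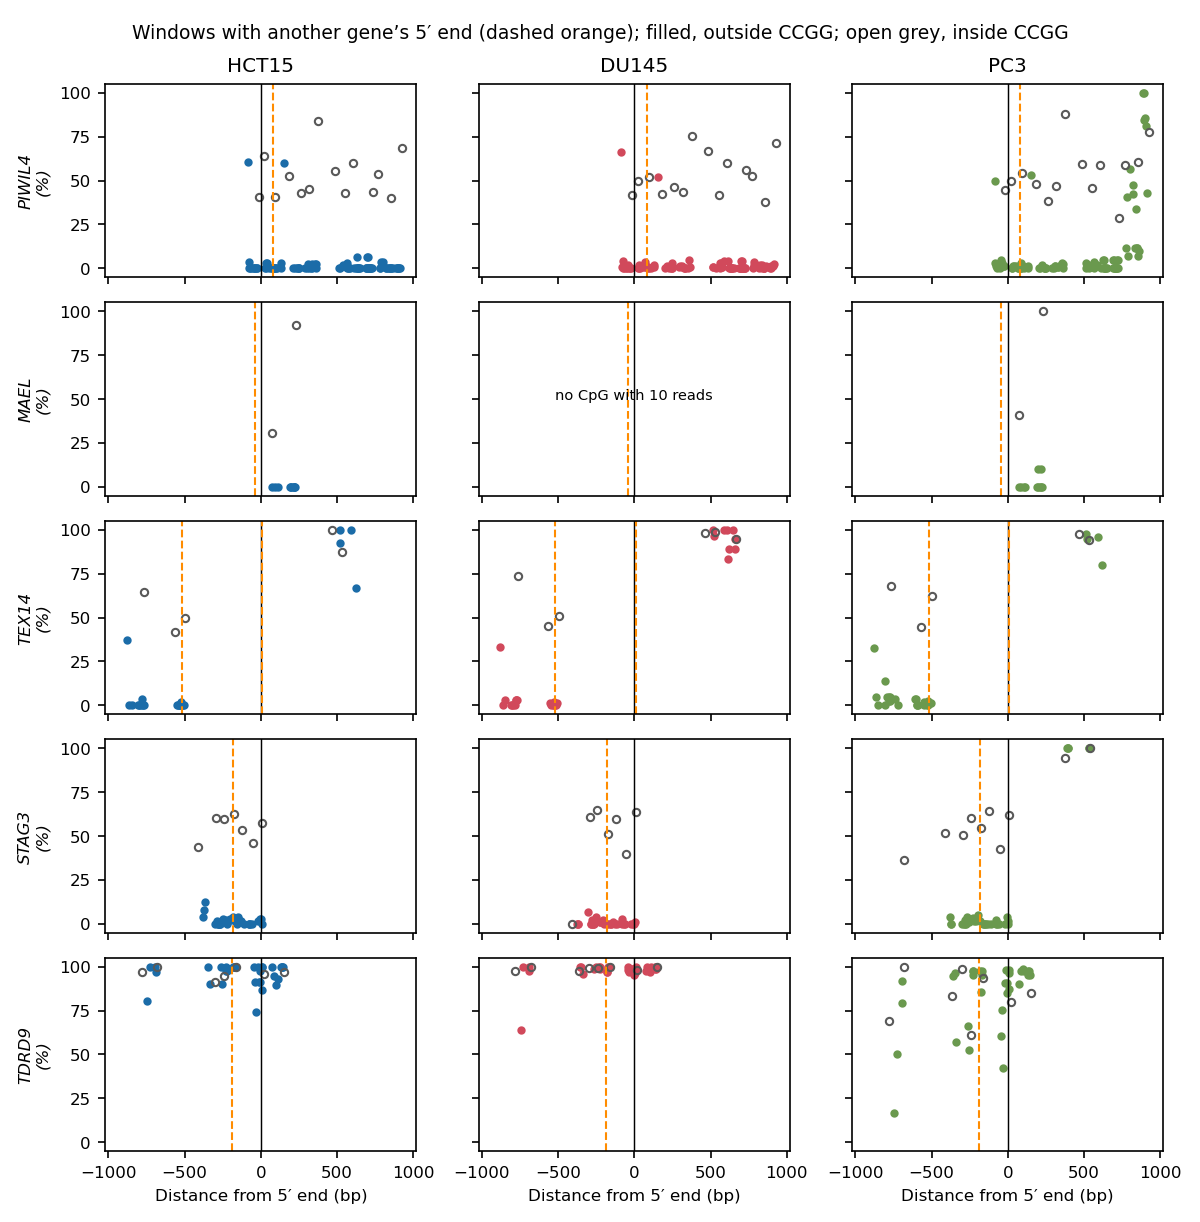
Methylation level of each CpG with 10 reads or more (y axis, percent) against distance from the gene 5′ end in bp (x axis, gene strand) in 5 windows that hold another gene's 5′ end, drawn as dashed orange lines, with the cell lines in columns. Filled points are outside CCGG and open grey points inside CCGG; PIWIL4 rises in PC3 beyond 750 bp, TEX14 in each line and STAG3 in PC3 have high points downstream, and TDRD9 is high on both sides.

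Repeated sequence was found in 10 other germline windows too. Of 874 CpGs measured in the germline windows of any line, 76 (8.70%) lay in 20-base stretches with 10 copies or more in the genome. In DDX4 these were 5 of 6 CpGs, in TEX101 4 of 5, in SYCE2 17 of 36 and in SYCP3 10 of 39. Without them SYCE2 had 77.7% in HCT15, 54.9% in DU145 and 48.8% in PC3, which made it partial in both prostate lines. SYCP3 kept 97.5%, 98.5% and 97.8% over 28 or 29 CpGs. By this choice, made after seeing the data, the methylated windows were 21 of 26 in HCT15, 16 of 26 in DU145 and 19 of 26 in PC3. DDX4 and TEX101, methylated in DU145 on 6 and 5 CpGs, kept 1 CpG each and were no longer measured. In addition, 15 of 23 windows were methylated in all 3 lines and 3 were unmethylated in all, TEX14 among them with 9.06%, 10.0% and 9.18%.

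MBD-seq recovered fragments at the methylated germline windows with each of the 4 kits other than MethylMiner, as far as their depth allowed. Depth was divided by the mean depth of the library over the genome, and the median was taken over the windows of a state. In HCT15 the median over the 21 methylated windows was 25.7 with MethylMagnet, 19.4 with MethylCollector, 13.2 with MethylCollector Ultra and 4.79 with MethylCap. Over the 4 unmethylated windows of HCT15 it was 0, 0, 0 and 0.386. In PC3 the medians were 24.3, 15.5, 11.0 and 6.29 over 20 methylated windows and 6.39, 7.53, 1.84 and 2.85 over 4 unmethylated ones, a smaller separation.

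In DU145 the 3 smallest libraries had a median of 0 over methylated and unmethylated windows alike, and MethylCap had 2.96 and 2.09. Their totals of 10040, 29613 and 30336 fragments were too small to read most windows, since 3, 8 and 5 of 19 methylated windows had a fragment. MethylMiner gave 1.68, 2.02 and 1.96 over the methylated windows of HCT15, DU145 and PC3 and 1.75, 2.14 and 2.97 over the unmethylated ones. It thus did not separate the RRBS states of the germline genes in any line.

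**Figure D5:**
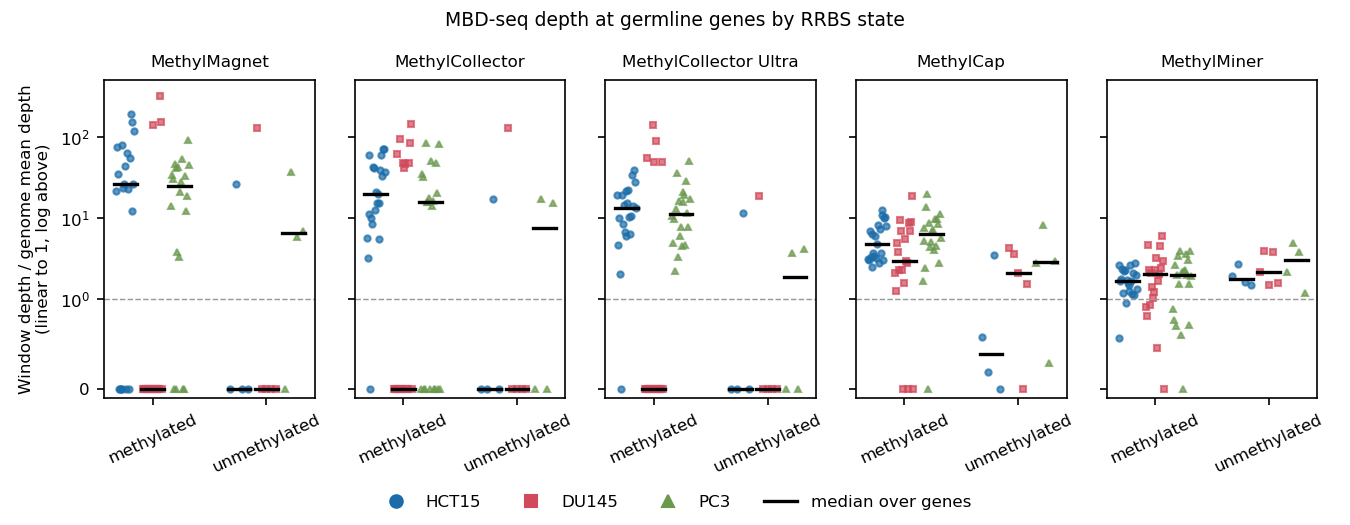
MBD-seq depth of each germline window divided by the mean depth of the library (y axis, linear up to 1 and logarithmic above), for windows that RRBS called methylated or unmethylated in the same line (x axis), with 1 panel per kit. Circles are HCT15, squares DU145 and triangles PC3, the bars are medians over genes and the dashed line is the genome mean; HCT15 methylated windows have medians from 25.7 with MethylMagnet to 4.79 with MethylCap, and MethylMiner shows both states near 2.

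Differences between lines in MBD-seq fragments were tested with edgeR's quasi-likelihood test with kit as a block over the 12 libraries of the 4 kits. With kit as a block, the p-values measure how much the difference between lines varied from kit to kit. They hold no spread between DNA samples, since the kits were applied to 1 DNA per line. The standard filter on low counts kept 247 windows and only 2 germline genes, TDRD6 and FKBP6, and called neither in any pair at an adjusted p up to 0.05 or at an unadjusted p under 0.05. Over all windows tested, HCT15 was called higher than DU145 in 3.64% of the 247 windows and lower in 2.02%, higher than PC3 in 14.2% and lower in 10.5%, and DU145 was higher than PC3 in 5.67% and lower in 6.88%. An unadjusted p under 0.05 in edgeR's test was reached by 47 (HCT15 and DU145), 96 (HCT15 and PC3) and 73 (DU145 and PC3) of the 247 windows. DESeq2 also called 0 of the 2. Over the 247 windows it called 0 higher and 4 lower, 23 and 18, and 6 and 7 for these pairs. TDRD6, a tudor-domain protein of germ cell granules, had 68, 9 and 51 fragments over the 4 kits for HCT15, DU145 and PC3, and FKBP6, a piRNA cochaperone, had 52, 11 and 37.

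With windows of 20 fragments or more over the 12 libraries, a filter chosen after seeing the data, 4874 windows and 28 germline genes were tested. In a simulation on these 4874 windows, 200 were raised in HCT15 and compared with DU145. There 43% of 4-fold and 100% of 16-fold rises were recovered, and 5 unchanged windows were called. Losses in HCT15 and the other pairs were not simulated. Between HCT15 and PC3, 1 germline gene was higher in HCT15 (3.57% of 28, against 10.9% of the windows) and 2 were lower (7.14%, against 4.10%). DESeq2 called 0 higher and 1, PIWIL4, lower, against 145 and 107 of the 4874 windows. Between HCT15 and DU145, 0 of 28 were called (against 1.78% higher and 0.308% lower). DESeq2 called 0 as well, against 7 higher and 1 lower of the 4874 windows. An unadjusted p under 0.05 in edgeR's test was reached by 5 of the 28, namely BRDT, PIWIL4, SYCP1, TDRD12 and TEX15. Over all windows it was reached by 999 of 4874, so the germline share was not higher. Between DU145 and PC3, 0 were called (against 0.533% and 1.07%), with 0 at an unadjusted p under 0.05 (against 815 of the 4874 windows). DESeq2 called 0 for this pair, against 3 higher and 45 lower over all windows.

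PIWIL4 had 1, 0, 0 and 1 fragments in HCT15 with MethylMagnet, MethylCollector, MethylCollector Ultra and MethylCap, against 0, 0, 0 and 3 from DU145 and 5, 1, 3 and 7 from PC3. The log2 fold change of HCT15 over PC3 was -3.94 (SE 0.823), with an adjusted p of 0.000145 in edgeR's quasi-likelihood test. PC3 had the most fragments with each kit, as it was highest in the RRBS CpGs at the far end of this window. Without MethylCap the value was -2.80 with an adjusted p of 0.238.

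CTCFL had 0, 2, 1 and 12 fragments in HCT15 with these kits and 7, 0, 5 and 9 in PC3, and a log2 fold change of -1.99 (SE 0.607, edgeR adjusted p = 0.0124). The groups overlapped between kits, the RRBS level was 84.3% in HCT15 and 84.8% in PC3, and the call was lost without MethylMagnet (adjusted p = 0.0778), without MethylCollector Ultra (adjusted p = 0.157) and without MethylCap (adjusted p = 0.213), as well as with DESeq2 (adjusted p = 0.0761). SYCE1 had 3, 3, 10 and 4 fragments in HCT15 and 0, 0, 1 and 0 in PC3, and a log2 fold change of 3.09 (SE 1.02, edgeR adjusted p = 0.0229), but leaving out any 1 of the kits raised the adjusted p to between 0.0703 and 0.174. At the canonical start of SYCE1 the 4 kits together gave 75 fragments in HCT15, or 15.4 CPM (counts scaled to the total of the 4 kits), and 34 in PC3, or 18.3 CPM. These totals mix the kits in different shares per line. With MethylMagnet, MethylCollector and MethylCollector Ultra, depth over the genome mean there was 223, 57.1 and 41.0 in HCT15 and 59.6, 18.9 and 29.0 in PC3. Only MethylCap was higher in PC3, with 15.5 against 12.7 in HCT15.

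With the same kits, TEX15 had 5, 8, 7 and 23 fragments from HCT15, against 0, 0, 0 and 1 from DU145 and 1, 1, 2 and 2 from PC3. The totals of TEX15 were 8.84, 1.12 and 3.23 CPM. HCT15 had the most TEX15 fragments with each kit. The log2 fold change of HCT15 over DU145 was 2.85 (SE 1.07) with an adjusted p of 0.104 in edgeR's quasi-likelihood test, which did not pass the threshold. With RLE in place of TMM normalization it was 2.92 with an adjusted p of 0.0448, so the call of TEX15 turned on the scaling. Against PC3, TEX15 was not called with TMM but was called with RLE (1.81, edgeR adjusted p = 0.0119) and with library totals (2.13, edgeR adjusted p = 0.00337). Over the 4 kits BRDT had 20, 0 and 3 fragments for HCT15, DU145 and PC3. A count of 0 in DU145 allows up to 3.36 CPM, against 4.11 CPM in HCT15, so the RRBS difference of BRDT was barely detectable at this depth.

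BOLL fragments did not show the RRBS order, with only 8 fragments in DU145. All BOLL CpGs measured by RRBS lay from 250 to 750 bp downstream of the 5′ end, whereas fragments were counted over the whole window. Over the 4 kits, which contributed in different shares per line, BOLL had 36, 8 and 18 fragments for HCT15, DU145 and PC3, or 7.40, 8.95 and 9.70 CPM. In DU145, where RRBS read BOLL as unmethylated, its depth over the genome mean was 127 with MethylMagnet, 129 with MethylCollector, 18.3 with MethylCollector Ultra and 4.21 with MethylCap, from 1, 3, 1 and 3 fragments. In HCT15 the same kits gave 34.7, 59.1, 9.94 and 6.82, from 2, 11, 5 and 18 fragments, and only MethylCap was higher in HCT15. A single fragment already sets a high value in the small DU145 libraries, as in TDRD5 with 106 (MethylMagnet) and 46.6 (MethylCollector). The order of the lines with the 3 smallest libraries can therefore not be read as an order of methylation. TDRD5 had 4.93, 3.36 and 4.31 CPM and MSH4 3.29, 1.12 and 4.85 CPM for HCT15, DU145 and PC3, with the lowest value in DU145 resting on 3 fragments in TDRD5 and 1 in MSH4.

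The promoters, from 250 bp before to 50 bp after the gene 5′ end, were searched for motifs of factors known to act at germline promoters. In DAZL, PIWIL4, MAEL, TEX101, SYCE1 and BOLL the canonical start lies 1443 bp or more from the gene 5′ end. The promoters at those canonical starts were not searched. The E-box CACGTG, bound by the MGA and MAX proteins, occurred in 7 of 34 germline promoters (20.6%, against 8.33% of all promoters), namely those of DDX4, TDRD1, TDRD12, STK31, TEX15, BRDT and SLC25A31. The E2F site GCGGGAA, or TTCCCGC on the other strand, occurred in 6 (17.6%, against 7.61%), those of TDRD9, SYCP1, SYCE2, HORMAD1, SPO11 and TEX14, and 0 held both. The motifs do not overlap in sequence, and each was read on both strands. In the separate list of 41 germ cell and meiosis genes described below, the E-box occurred in 3 promoters (7.32%) and the E2F site in 5 (12.2%). The higher share of the E-box was thus not seen in that list. Genes with an E-box included windows high in all lines (TDRD12, SLC25A31) and windows low in at least 1 line (TEX15, BRDT).

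A separate list of 41 germ cell and meiosis genes was methylated in 24 of 31 measured windows in HCT15 (77.4%), 17 of 33 in DU145 (51.5%) and 18 of 26 in PC3 (69.2%). TERB1, a telomere protein of meiosis, had 98.1%, 98.7% and 100% in HCT15, DU145 and PC3, while ZCWPW1 had 12.1%, 13.2% and 9.08%. HFM1, a meiotic helicase, had 95.5%, 9.69% and 21.9%, and SYCP2L had 97.2%, 20.5% and 87.4%, and 8 of 29 windows of this list (27.6%, against 12.3% of all genes) were lower in DU145 than in HCT15, with 0 in the other direction (against 1.56%). Among 24 somatic relatives of the germline genes, 1 window was methylated in each line, that of AGO1 with 94.6%, 92.4% and 96.2%. CTCF, the somatic relative of CTCFL, had 7.61%, 8.69% and 8.50%. AGO3, like AGO1 a somatic relative of the PIWI genes, had 7.10%, 7.02% and 7.26%, the lowest maximum over the lines among those measured in all 3.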

How the data were processed

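RRBS and MBD-seq were done on HCT15, DU145 and PC3, with 1 library per line and assay or kit. The RRBS files deposited by the authors give, for each CpG, read counts in total and methylated, both strands summed, with 6 as the lowest coverage in the files; the aligner is not given in the sources used here. The MBD-seq files hold a deposited signal, namely how many non-duplicate fragments cover a position, which the authors mapped as read pairs with Bowtie to NCBI build 37 (hg19) and did not scale. The 34 genes and the other gene lists were chosen with earlier results of these data known.

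Genes and canonical transcripts were taken from GENCODE 44 on GRCh37. Levels were means over CpGs with 10 reads or more in windows of 1000 bp on either side. Fragments overlapping a window were recovered as whole numbers from the depth at its start plus the rises within it, which misses a fragment that starts where another ends. Counts were tested with edgeR 4.0.16 (TMM, kit as block, R 4.3.3) and, as an alternative, DESeq2 1.42.0. Pairs of libraries were compared per CpG with Fisher's exact test. The scripts were tested on simulated data. Full values are given for genes with a lowest line up to 20% and a highest from 60%, the 6 with the highest minimum, the 4 with the lowest maximum, genes with an MBD-seq call, and DAZL, DDX4, SYCP3, MAEL, TDRD1 and TEX101. Alternatives were other coverage minimums, windows, limits, starts, normalizations, filters and kits. RRBS rows off chromosomes 1 to 22, X and Y or off a CG were dropped. SIX6OS1, of the separate germ cell list, was not matched.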

Additional observations from a re-analysis of the deposited data

How the results depend on the processing

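With 1 library per line and kit, no result has an error between samples, depth limited MBD-seq in DU145, and levels rest on the CpGs that RRBS covered. Counts of methylated windows in each line stayed within 1.5 times the reported value under every alternative run. Counts of unmethylated windows moved to 3 and 2 in DU145 with windows of 500 and 2000 bp, to 2, 3 and 2 in HCT15, DU145 and PC3 at canonical starts, and to 2, 2 and 1 with limits of 70% and 10%. The PC3 median moved to 78.0% with CpGs of 6 reads or more, 92.0% with windows of 500 bp and 75.9% with 10 CpGs or more. Windows higher in DU145 than in PC3 became 0 at 20 reads, at 500 bp or at 40 points, and 2 at 6 reads, at 2000 bp or outside CCGG, and windows lower became 1 with 10 CpGs or more. Windows higher in HCT15 than in PC3 became 3 at 6 reads and 2 at 2000 bp or outside CCGG, and 1 window was lower in HCT15 than in DU145 at 20 reads. CpGs higher in DU145 than in PC3 fell to 23 at 40 points.

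The mean of the 3 lines' medians moved to 6.25 for MethylMagnet over unmethylated windows with limits of 70% and 10%, and to 2.11 and 1.26 for MethylMiner over methylated windows of 500 and 2000 bp. The other depths moved by less than the SD over the 3 lines, which was large. MethylCap over unmethylated windows went from 1.77 to 0.536 (500 bp) and 2.69 (2000 bp, against 3.37 over methylated ones), and MethylCollector over unmethylated windows from 2.51 to 0 at 500 bp or with limits of 70% and 10%. Over methylated windows, MethylMagnet went from 16.7 to 25.2 and 8.78 and MethylCollector from 11.6 to 16.9 and 5.86 at 500 and 2000 bp. Genes called from fragments between HCT15 and PC3 were 3 with 20 fragments or more and 1 without a filter. Leaving out a kit gave 0 to 1 with the standard filter and 0 to 2 with 20 fragments or more. The other pairs had 0 calls, except TEX15 between HCT15 and DU145 with 20 fragments or more and RLE. Between HCT15 and PC3, with 20 fragments or more, RLE and library totals each called 3 genes higher, SYCE1, TDRD12 and TEX15, against 1 with TMM, and 2 lower. Over all 4874 windows the calls were 532 higher and 200 lower with TMM, 1011 and 196 with RLE and 1189 and 163 with library totals, and the median log2 difference was 0.14, 0.46 and 0.60. Between DU145 and PC3 they were 26 higher and 52 lower, 69 and 76, and 147 and 34, with medians of -0.50, -0.32 and 0.05. Without the replicate block, the kit term, 0 of the 2 genes kept by the standard filter were called in any pair. With 20 fragments or more and no block, PIWIL4 and CTCFL were still called lower in HCT15 than in PC3 (edgeR adjusted p = 0.00339 and 0.0399). The SYCE1 value was then 3.00 with an edgeR adjusted p of 0.0758.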
